A study of Mus musculus with 6 samples.

Results

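The 10 genes that carry the synthesis and the remodelling of cardiolipin were followed in the hearts of mice that had lost *Immt*, the gene of the Mic60 protein. They were chosen by name as the known steps of the pathway, with earlier results of these data known. All 10 were found among the 27021 genes of the count table and passed the filter on low counts. Bulk RNA-seq libraries, 1 for each heart, came from 3 mice of the genotype Immtfl/fl-Myh6-MCM and from 3 of the genotype Immt+/+-Myh6-MCM, which served as controls. In the first group both copies of *Immt* carry loxP sites, in the second neither does, and the labels give both groups Myh6-MCM, a Cre recombinase driven by the cardiomyocyte promoter of *Myh6* and active only under tamoxifen. Both groups received tamoxifen at 6 weeks of age and were examined 20 weeks later, at 26 weeks of age. Cells of the heart other than cardiomyocytes keep *Immt*, and RNA was taken from the heart as a whole.

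Cardiolipin is the signature phospholipid of the inner mitochondrial membrane, where it holds respiratory complexes and the cristae in shape, and the heart is rich in it. Phosphatidic acid is carried to the inner membrane by the *Prelid1*-*Triap1* complex and is turned into CDP-diacylglycerol, by *Tamm41* within mitochondria and by *Cds1* and *Cds2* in the endoplasmic reticulum. *Pgs1* then makes phosphatidylglycerol phosphate, *Ptpmt1* removes its phosphate, and *Crls1* joins phosphatidylglycerol with a further CDP-diacylglycerol to give cardiolipin. The acyl chains of new cardiolipin are afterwards exchanged, by the transacylase tafazzin (*Taz*), whose loss causes Barth syndrome in humans, and by the acyltransferase *Lclat1* of the endoplasmic reticulum. The *Taz* of these data is tafazzin and not the Hippo pathway coactivator of the same alias.

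The counts of *Immt* itself were 24752, 18263 and 21452 in controls and 1358, 1569 and 2164 after the deletion, where 5.55% of its control CPM was left (log2FC -4.17 with a standard error of 0.239, adjusted p = 6.33e-06). Libraries held 42301627 to 44151674 counts in the control group and 49793058 to 53251529 counts in the Immtfl/fl-Myh6-MCM group. Mitochondrially encoded genes took 19.5% to 23.3% of the counts in control hearts and 8.21% to 8.85% in Immtfl/fl-Myh6-MCM hearts. Of 10 cardiomyocyte markers 7 fell at an adjusted p under 0.05 and none rose, where 18.5% of all genes tested fell and 19.9% rose, and their summed level was 78650 to 83240 CPM (counts scaled to a common library size) in control hearts and 36860 to 49780 CPM in Immtfl/fl-Myh6-MCM hearts. The markers did not move alike, from a log2FC of -2.15 for *Pln* to 0.095 for *Mybpc3*. *Myh6* alone held a mean of 35940 CPM of the sum in control hearts. In bulk tissue fewer cells of a type, less RNA per cell and changes of single genes cannot be told apart. Of the other markers, none of 7 for fibroblasts passed the test, 2 of 7 for endothelium rose and 1 fell, 2 of 8 for macrophages and leukocytes rose, and 1 of 6 for smooth muscle and pericytes rose and 2 fell. No marker was at 0 in every library. These smaller counts depended on single hearts. The macrophage count was 7 without Immtfl/fl-Myh6-MCM heart 3 and 0 or 1 without any other heart. Fibroblast markers had 2 higher without Immtfl/fl-Myh6-MCM heart 3 and 2 lower without heart 1 of that group, endothelial markers had 2 lower without heart 1 or without control heart 2, and the smooth muscle marker that rose lost its call without Immtfl/fl-Myh6-MCM heart 1 or 3. DESeq2 called 1 fibroblast marker higher, and upper-quartile factors gave 2 fibroblast and 4 endothelial markers lower. Counts assigned to *Esr1*, whose sequence is part of MerCreMer, were 144479 to 165400 in control hearts and 71 to 323 in Immtfl/fl-Myh6-MCM hearts, which goes against the label of the transgene in both groups. Effects of *Immt* loss and of this difference cannot be told apart here. The part of these shifts in the results on cardiolipin genes was not tested.

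The DNA just before the start sites is shown first for the genes where it lay in no annotated exon, *Cds1*, *Cds2* and *Lclat1*. The sequences and start sites are those of RefSeq on GRCm38.p6, where 9 of the 10 genes had a promoter of 300 bases, 250 before the start and 50 after it, and *Tamm41* had none. The *Cds1* and *Cds2* stretches belong to the paralogous enzymes that moved in opposite directions, and the *Lclat1* stretch to the gene with the larger fall of the remodelling pair. Each is 120 bases long, ends at the base before the start site and lies in no annotated exon, and it is given in lower case because it held none of the motifs searched. The *Cds1* stretch (chr5:101765010-101765129, plus strand) is 80.0% G and C, against 62.5% in *Cds2* (chr2:132263028-132263147, plus strand) and 67.5% in *Lclat1* (chr17:73107865-73107984, plus strand).
Cds1: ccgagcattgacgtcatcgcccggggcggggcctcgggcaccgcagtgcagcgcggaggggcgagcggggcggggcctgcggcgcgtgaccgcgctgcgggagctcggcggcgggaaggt
Cds2: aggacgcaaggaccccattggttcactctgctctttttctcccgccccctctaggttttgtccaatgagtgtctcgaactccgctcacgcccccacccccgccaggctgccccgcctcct
Lclat1: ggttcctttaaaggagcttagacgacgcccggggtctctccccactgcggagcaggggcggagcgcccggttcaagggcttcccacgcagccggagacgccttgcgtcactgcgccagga

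Motifs of 5 kinds were searched on both strands of the 9 promoters and of 32851 promoters in all. The NRF1 motif (GCGC, then A and any base, then GCGC) was found in 2 of the 9, *Cds2* and *Pgs1*, and in 4.60% of all promoters. The E-box CACGTG was found in 2 of the 9, *Prelid1* and *Crls1*, and in 7.15% of all. The ETS motif CCGGAAGT was found in *Prelid1* alone and in 3.89% of all. The ERR motif TNAAGGTCA (1.28% of all promoters) and the ATF4 motif TGATGNAA (3.97%) were found in none of the 9. The median share of G and C was 63.3% in the 9 promoters and 52.7% in all, and the motif shares were not adjusted for it. A match is a run of letters and not a shown binding site. The *Prelid1* stretch below, from 85 to 56 bases before the start (chr13:55321970-55321999, plus strand), holds the E-box and the ETS motif in capitals, and the *Pgs1* stretch, from 68 to 39 bases before the start (chr11:117986789-117986818, plus strand), holds the NRF1 motif in capitals, read on the opposite strand. Unlike the first 3 stretches, both lie wholly in annotated exons, that of *Prelid1* in exons of *Prelid1* and *Rab24*, and the RefSeq start is 1555 bases from the gene start of the annotation in *Prelid1* and 565 bases in *Pgs1*.
Prelid1: ggtCACGTGacgcgggcgCCGGAAGTggcc
Pgs1: tgccgctaccGCGCCTGCGCgctggctccc

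Genes of the pathway differed between the groups in both directions. A gene is said to have risen or fallen where its adjusted p was under 0.05 in the quasi-likelihood F test of edgeR, adjusted over the 17146 genes tested. By this rule 4 of the 10 genes rose (*Prelid1*, *Cds2*, *Crls1* and *Ptpmt1*), 3 fell (*Cds1*, *Lclat1* and *Taz*) and 3 did not pass (*Triap1*, *Pgs1* and *Tamm41*). Of all genes tested, 19.9% rose and 18.5% fell. With the added threshold of a log2FC above 1 or below -1, used in the study's volcano plot, *Prelid1* and *Cds2* were past it upward and *Cds1* downward, against 9.91% and 10.6% of all genes tested. Calls in both directions were thus common among all genes, and whether the 10 genes were called more often than others was not tested. The hearts of the groups did not overlap for 4 genes that were higher and 4 that were lower in Immtfl/fl-Myh6-MCM hearts, where 26.9% and 26.0% of all genes did so. The median log2FC of the 10 genes was 0.15, beside -0.001 for all genes tested. Phosphatidic acid transfer held 1 gene that rose and 1 that did not pass, CDP-diacylglycerol supply held 1 that rose, 1 that fell and 1 that did not pass, synthesis held 2 that rose and 1 that did not pass, and both remodelling genes fell.

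**Figure D1:**
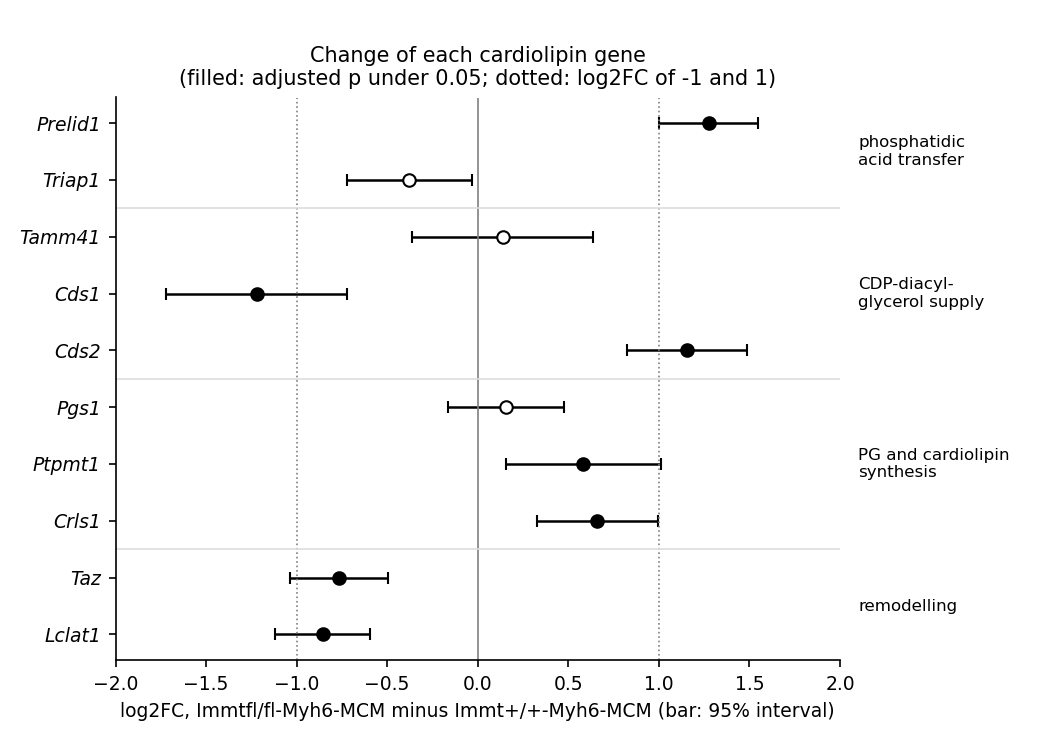
Log2FC of each of the 10 genes on the horizontal axis, Immtfl/fl-Myh6-MCM minus Immt+/+-Myh6-MCM, with 95% intervals and the genes ordered by their step in the pathway. Filled points passed an adjusted p of 0.05: 4 lie to the right of 0, 3 to the left, and the highest and the lowest are *Prelid1* at 1.28 and *Cds1* at -1.22.

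*Prelid1* encodes the lipid transfer protein that carries phosphatidic acid across the intermembrane space. Its level was 22.4, 22.6 and 26.9 CPM, scaled by TMM, in control hearts, and 58.3, 57.5 and 58.4 CPM in Immtfl/fl-Myh6-MCM hearts. Every Immtfl/fl-Myh6-MCM heart was thus above every control heart, and these 3 hearts lay close together (24.0 ± 2.57 CPM against 58.0 ± 0.463 CPM, mean ± SD, n = 3 per group). The mean was 2.42-fold higher (log2FC 1.28, standard error 0.122, adjusted p = 7e-05, edgeR). *Prelid1* lies on chromosome 13 of GRCm38 from 55320500 to 55325272 on the plus strand, and 46.2% of its exonic bases, 1258 in number, are shared with exons of *Rab24* on the opposite strand. *Rab24*, a small GTPase, moved the other way, with a log2FC of -0.48 (standard error 0.158, adjusted p = 0.0391), and as no source here states whether counting used the strand, reads of the 2 genes cannot be told apart in the shared bases.

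*Triap1*, the small partner that stabilizes *Prelid1* protein in the intermembrane space (chromosome 5, 115341225 to 115343569, plus strand), did not rise with it. It stood at 14.9, 16.6 and 14.6 CPM in control hearts and at 11.3, 11.8 and 12.4 CPM in Immtfl/fl-Myh6-MCM hearts. The groups did not overlap, with the Immtfl/fl-Myh6-MCM hearts lower, but the log2FC of -0.38 did not pass the test over all genes (standard error 0.153, 95% interval -0.72 to -0.03, adjusted p = 0.0795). With upper-quartile factors, which lower the median log2FC of all genes by 0.103, it passed at a log2FC of -0.48 (adjusted p = 0.0324).

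Within each heart *Prelid1* had 1.51, 1.36 and 1.84 counts for each count of *Triap1* in the control group and 5.16, 4.89 and 4.70 in the Immtfl/fl-Myh6-MCM group. A ratio of counts within a library does not depend on the scaling between libraries. The ratio was 3.15-fold higher (difference of mean log2 ratio 1.66), in 3 of 3 Immtfl/fl-Myh6-MCM hearts against each control heart. The two-sided exact permutation p was 0.1, the smallest that 3 hearts against 3 allow, and 0.133 after adjustment over the 4 ratios computed.

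The *Cds* paralogs, which make CDP-diacylglycerol in the endoplasmic reticulum, moved apart. *Cds2* (chromosome 2, 132263148 to 132312050, plus strand) had 292, 223 and 316 CPM in control hearts and 587, 635 and 627 CPM in Immtfl/fl-Myh6-MCM hearts. Its mean was 2.23-fold higher (277 ± 48.4 CPM against 616 ± 25.7 CPM, log2FC 1.15, standard error 0.147, adjusted p = 0.000343). No Immtfl/fl-Myh6-MCM heart came near the control range.

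*Cds1* (chromosome 5, 101765130 to 101823858, plus strand) was the scarcer paralog, at 13.8, 15.2 and 9.41 CPM in control hearts and 5.79, 5.71 and 4.99 CPM in Immtfl/fl-Myh6-MCM hearts. The mean fell to 0.429 of the control mean (log2FC -1.22, standard error 0.222, adjusted p = 0.00238). Control hearts were spread more widely for this gene, with a coefficient of variation of 23.5% against 8.01% in Immtfl/fl-Myh6-MCM hearts, and the lowest control heart was still above all 3.

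The ratio within each heart restates the opposite moves of *Cds1* and *Cds2* from the same counts. The count ratio of *Cds1* to *Cds2* was 0.0472, 0.0681 and 0.0298 in control hearts and 0.00986, 0.00899 and 0.00796 in Immtfl/fl-Myh6-MCM hearts. This was a 5.14-fold lower ratio, with a difference of mean log2 ratio of -2.36 (two-sided exact permutation p = 0.1, adjusted 0.133). The start sites of the pair, shown above, lie on different chromosomes, whereas *Cds2* and *Crls1* lie on chromosome 2 with 534616 bases between them.

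*Tamm41* supplies CDP-diacylglycerol inside mitochondria (chromosome 6, 115004381 to 115037876, minus strand). It had 7.44, 5.60 and 6.89 CPM in control hearts and 6.94, 6.22 and 8.78 CPM in Immtfl/fl-Myh6-MCM hearts, and the groups overlapped. The log2FC of 0.14 had a 95% interval of -0.36 to 0.64 (adjusted p = 0.664), and without the third Immtfl/fl-Myh6-MCM heart it was -0.009. Unlike *Cds1* and *Cds2* in this fit, its difference was within the spread of the hearts.

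**Figure D2:**
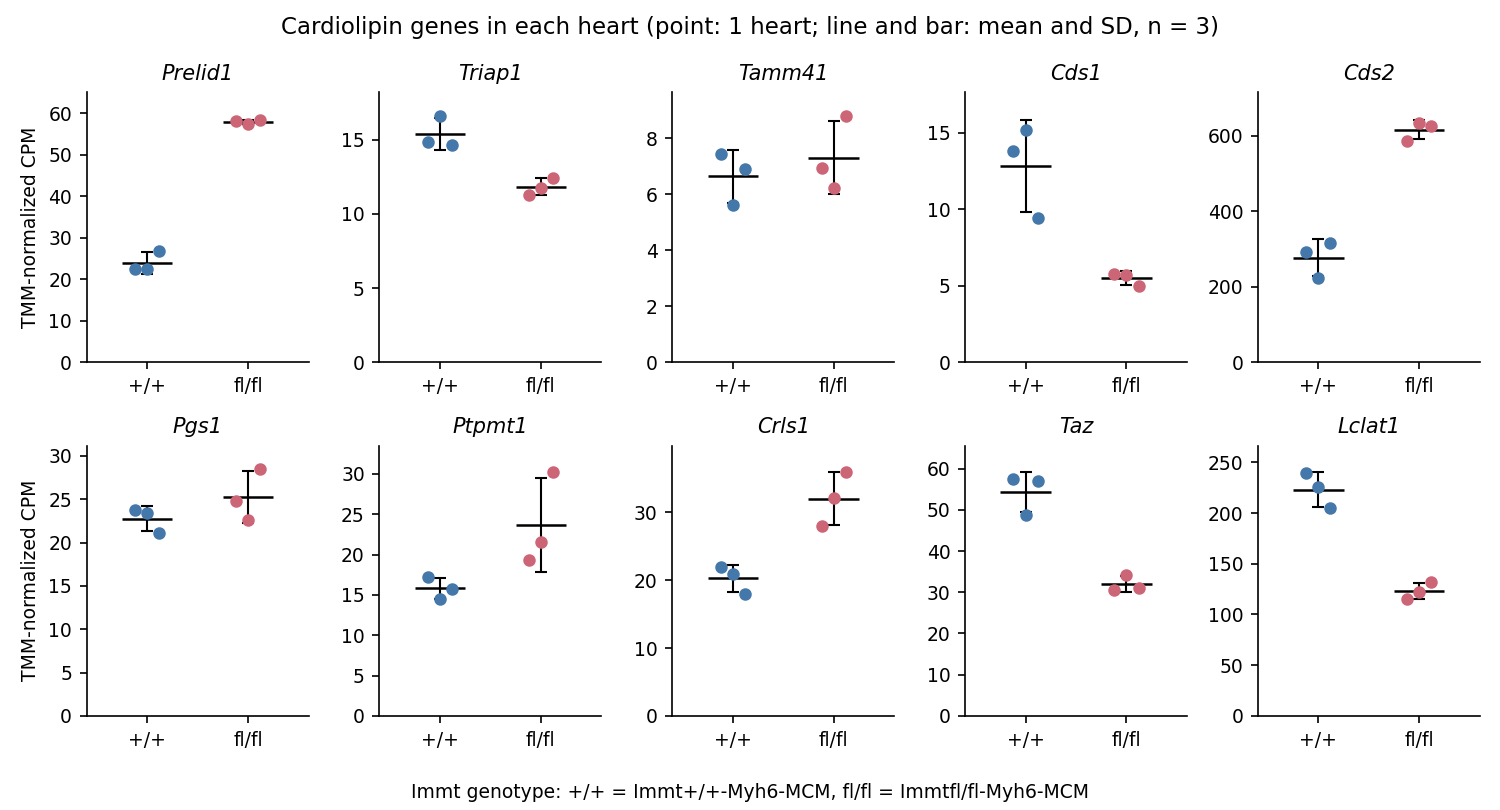
TMM-normalized CPM of each of the 10 genes in each heart, on axes that start at 0, with 3 control hearts at left and 3 Immtfl/fl-Myh6-MCM hearts at right of each panel (points: hearts, lines and bars: mean and SD). The groups are apart in 8 panels and overlap in those of *Tamm41* and *Pgs1*.

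*Crls1*, cardiolipin synthase, rose (chromosome 2, 132846666 to 132866785, plus strand). Its level was 21.9, 21.0 and 18.0 CPM in control hearts and 28.0, 32.1 and 36.0 CPM in Immtfl/fl-Myh6-MCM hearts, with all 3 of the latter above the control range. The mean was 1.58-fold higher (20.3 ± 2.05 CPM against 32.1 ± 3.96 CPM, log2FC 0.66, standard error 0.149, adjusted p = 0.00702).

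*Ptpmt1*, the phosphatase before it in the pathway (chromosome 2, 90908716 to 90918258, minus strand, annotated as a processed transcript), had 17.2, 14.6 and 15.7 CPM in control hearts and 19.3, 21.5 and 30.2 CPM in Immtfl/fl-Myh6-MCM hearts. The groups did not overlap, but the third Immtfl/fl-Myh6-MCM heart stood well above the others, and the coefficient of variation was 24.4% in this group and 8.44% in the control group. The mean was 1.50-fold higher (log2FC 0.58, standard error 0.190, adjusted p = 0.0368). This call was lost in 7 of 14 alternatives, among them each of the 5 fits without a control heart or without Immtfl/fl-Myh6-MCM heart 2 or 3, and without heart 3 the log2FC was 0.37 (adjusted p = 0.0764). Exons of *Kbtbd4* on the opposite strand share 45.0% of the exonic bases of *Ptpmt1*, and *Kbtbd4*, a Kelch and BTB domain protein, fell (log2FC -0.67, standard error 0.150, adjusted p = 0.00675), with the same limit on strand as for *Prelid1*.

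*Pgs1*, the first enzyme of the branch and the source of phosphatidylglycerol phosphate (chromosome 11, 117986292 to 118024011, plus strand), had 23.7, 23.4 and 21.1 CPM in control hearts and 24.9, 22.6 and 28.5 CPM in Immtfl/fl-Myh6-MCM hearts. The groups overlapped, and the log2FC of 0.15 had a 95% interval of -0.17 to 0.47 (adjusted p = 0.43). A change as large as the 0.66 of *Crls1* lies outside this interval, but the 95% interval of *Crls1*, 0.326 to 0.995, overlaps it.

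*Crls1* had 0.923, 0.895 and 0.851 counts for each count of *Pgs1* in control hearts and 1.13, 1.43 and 1.26 in Immtfl/fl-Myh6-MCM hearts. The ratio was thus below 1 in every control heart and above 1 in every Immtfl/fl-Myh6-MCM heart, a 1.42-fold difference (difference of mean log2 ratio 0.51, two-sided exact permutation p = 0.1, adjusted 0.133).

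Both remodelling genes fell, and by a like amount. *Taz* (chromosome X, 74281912 to 74290151, plus strand) had 57.5, 48.7 and 56.9 CPM in control hearts and 30.6, 34.1 and 31.0 CPM in Immtfl/fl-Myh6-MCM hearts. The groups were apart, and the mean was 0.588 of the control mean (54.3 ± 4.92 CPM against 31.9 ± 1.91 CPM, log2FC -0.77, standard error 0.121, adjusted p = 0.0011). With a term for the hearts that express *Xist*, 1 in each group, and under every other alternative, the log2FC of this X-linked gene was between -0.87 and -0.72 and stayed past the threshold.

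*Lclat1* (chromosome 17, 73107985 to 73243368, plus strand) had 239, 225 and 205 CPM in control hearts and 116, 122 and 132 CPM in Immtfl/fl-Myh6-MCM hearts. These groups were apart as well, and the mean was 0.552 of the control mean (223 ± 17.3 CPM against 123 ± 8.15 CPM, log2FC -0.86, standard error 0.117, adjusted p = 0.000497). Neither gene shares exonic bases with another annotated gene.

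The count ratio of *Lclat1* to *Taz* was 4.16, 4.63 and 3.60 in control hearts and 3.77, 3.59 and 4.25 in Immtfl/fl-Myh6-MCM hearts. These ranges overlapped, and the difference of mean log2 ratio was -0.09 (two-sided exact permutation p = 0.6, adjusted 0.6). The ratio of the remodelling genes was the only ratio of the 4 whose groups overlapped. The summed level of cardiomyocyte markers, which also fell, is given above beside its limits.

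**Figure D3:**
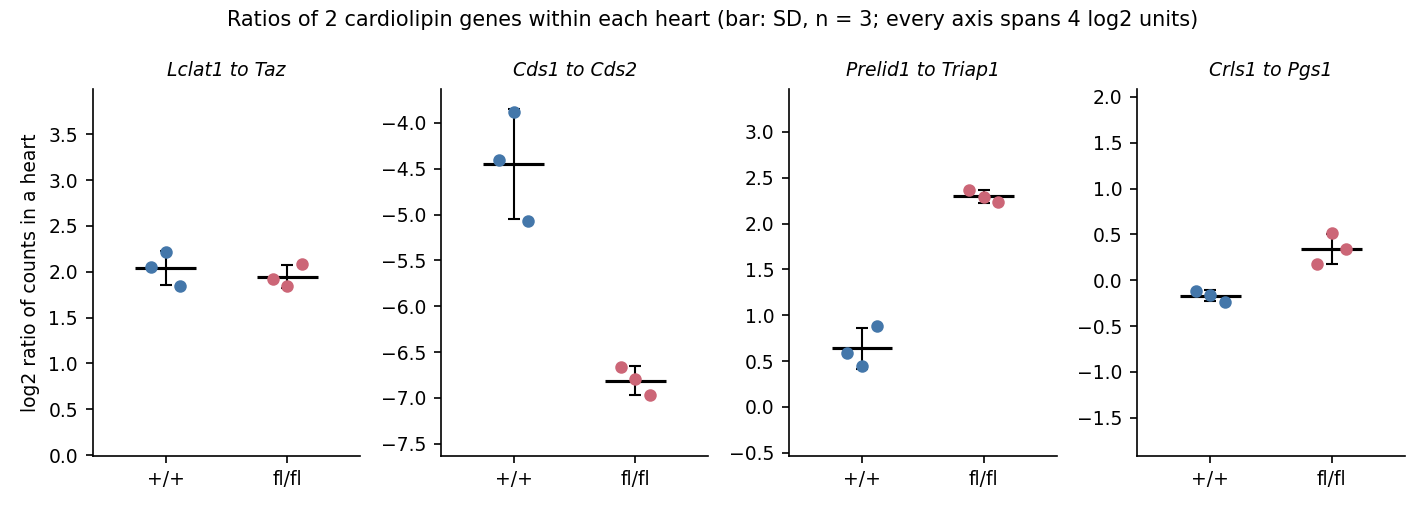
Log2 ratio of the counts of 2 genes within each heart, for *Lclat1* to *Taz*, *Cds1* to *Cds2*, *Prelid1* to *Triap1* and *Crls1* to *Pgs1*, with every vertical axis spanning 4 log2 units (points: hearts, lines and bars: mean and SD, n = 3). The *Lclat1* to *Taz* ratio overlaps between the groups at means of 2.04 and 1.95, and the *Cds1* to *Cds2* ratio moves from -4.45 to -6.81.

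The third Immtfl/fl-Myh6-MCM heart was the highest of its group for 7 of the 10 genes, and the first control heart was the highest of its group for 6. The coefficient of variation among Immtfl/fl-Myh6-MCM hearts ran from 0.795% for *Prelid1* to 24.4% for *Ptpmt1*. Among control hearts it ran from 6.24% for *Pgs1* to 23.5% for *Cds1*.

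Levels of different genes were compared per length, on the FPKM that the authors deposited. In control hearts *Lclat1* was the highest at 42.3 ± 3.50 FPKM, followed by *Cds2* at 28.1 ± 4.70 FPKM and *Triap1* at 13.1 ± 1.02 FPKM, with no overlap between these neighbours. *Taz* (9.39 FPKM), *Crls1* (9.04 FPKM) and *Prelid1* (8.16 FPKM) came next and overlapped each other. *Ptpmt1* (3.98 FPKM) and *Pgs1* (3.96 FPKM) overlapped too, and *Cds1* (3.02 FPKM) and *Tamm41* (1.17 FPKM) were the lowest.

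In Immtfl/fl-Myh6-MCM hearts *Cds2* was the highest at 63.0 ± 3.20 FPKM and *Lclat1* came second at 23.5 ± 1.75 FPKM. *Prelid1* moved from place 6 to place 3 at 19.9 ± 0.210 FPKM, ahead of *Crls1* (14.4 FPKM) and *Triap1* (10.1 FPKM). *Ptpmt1* (6.00 FPKM) and *Taz* (5.55 FPKM) overlapped, *Pgs1* followed at 4.42 FPKM, and *Cds1* (1.30 FPKM) and *Tamm41* (1.29 FPKM) overlapped in the last places. *Cds1* had been above *Tamm41* in every control heart. The labels describe priming at the poly-A tail, and where reads come mainly from the 3' end a value per length understates long genes, which could not be checked on gene counts.

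**Figure D4:**
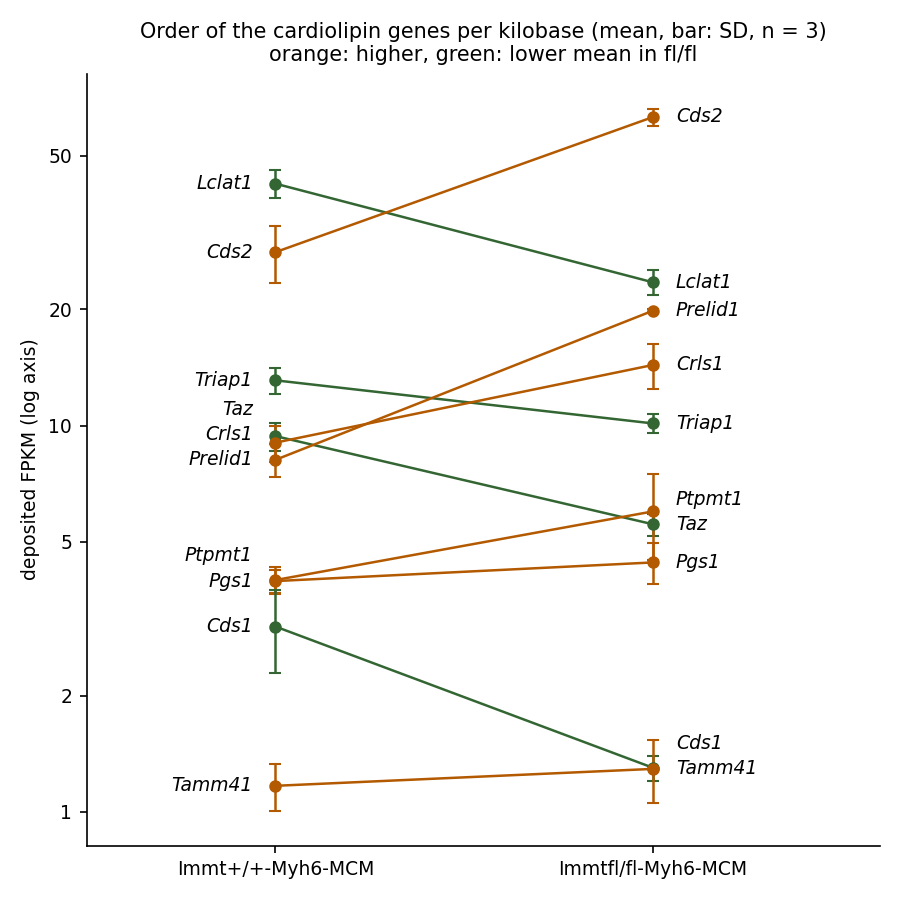
Deposited FPKM of the 10 genes on a log axis, as group mean and SD (n = 3), with control hearts at left and Immtfl/fl-Myh6-MCM hearts at right and a line joining each gene. *Lclat1* and *Cds2* cross at the top, *Prelid1* rises from place 6 to place 3, and *Taz* goes from place 4 to place 7.

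Around these 10 genes, 56 further phospholipid genes in 6 lists were counted in the same fit, and 54 of them were tested (*Gpat2* and *Etnk2* were too low). Of these 10 rose, 10 fell and 34 did not pass, and their median log2FC was 0.000. These counts were near the shares of all genes tested, 19.9% of which rose and 18.5% fell, and the counts of each list below stand against the same shares. No list was tested as a set or against another list. *Hadha*, *Lpin2*, *Lpin3*, *Cdipt*, *Chpt1*, *Pcyt1a*, *Stard7*, *Opa1*, *Afg3l2* and the genes named only as not passed were singled out after their values were seen.

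Of 8 genes for hydrolysis, reacylation and transfer of cardiolipin outside the 10, none rose, 2 fell and 6 did not pass (median log2FC -0.33). *Abhd18*, reported as a cardiolipin deacylase, had 97.5, 126 and 70.7 CPM in control hearts and 17.4, 18.8 and 9.70 CPM in Immtfl/fl-Myh6-MCM hearts (log2FC -2.68 with a standard error of 0.299, adjusted p = 0.000325). The Immtfl/fl-Myh6-MCM hearts were all far below the control range. *Pld6*, the mitochondrial phospholipase that cleaves cardiolipin to phosphatidic acid, had only 12, 18 and 12 counts in control hearts and 4, 0 and 0 counts in Immtfl/fl-Myh6-MCM hearts (log2FC -3.78, adjusted p = 0.0192), and that call was lost without any of the 3 control hearts or without the second Immtfl/fl-Myh6-MCM heart (adjusted p of 0.0537 to 0.0672). Without the first Immtfl/fl-Myh6-MCM heart the other 2 were at 0, and the fitted log2FC of -7.02 is then no bound on the fold. *Hadha*, the trifunctional protein subunit with monolysocardiolipin acyltransferase activity, did not pass, at a log2FC of -0.51 (adjusted p = 0.0664).

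Of 12 genes tested for phosphatidic acid synthesis, 1 rose, 1 fell and 10 did not pass (median log2FC -0.09). *Agk*, the mitochondrial acylglycerol kinase, had 17.8, 15.8 and 15.6 CPM in control hearts and 26.5, 24.0 and 21.1 CPM in Immtfl/fl-Myh6-MCM hearts (log2FC 0.54, adjusted p = 0.0179), a call lost in 4 of the 6 fits that left out a heart. *Dgke*, a diacylglycerol kinase, fell from 42.1, 42.4 and 36.1 CPM to 26.7, 21.8 and 20.5 CPM (log2FC -0.81, adjusted p = 0.00224). The acyltransferases *Gpam* and *Agpat1* to *Agpat5* did not pass. Downward 2 genes of the list passed without control heart 2 or Immtfl/fl-Myh6-MCM heart 3.

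Other users of phosphatidic acid and CDP-diacylglycerol held the highest median of the 6 lists, a log2FC of 0.80, with 5 of 7 risen, 1 fallen and 1 not passed. *Plpp2*, a lipid phosphate phosphatase, had 0.964, 1.69 and 1.52 CPM in control hearts and 9.59, 6.79 and 6.47 CPM in Immtfl/fl-Myh6-MCM hearts (log2FC 2.45 with a standard error of 0.306, adjusted p = 0.000313). *Lpin1*, the phosphatidic acid phosphatase of muscle, fell from 231, 340 and 238 CPM to 95.5, 87.5 and 56.0 CPM (log2FC -1.76, standard error 0.230, adjusted p = 0.000525). Its paralogs rose, *Lpin2* by a log2FC of 0.80 (adjusted p = 0.0298) and *Lpin3* by 0.83 (adjusted p = 0.0301), while *Cdipt*, the phosphatidylinositol synthase that draws on CDP-diacylglycerol, rose by 0.74 (adjusted p = 0.000815). Over the 14 alternative fits, 3 to 5 genes of this list passed upward, with 3 under upper-quartile factors and without control heart 1 or 3 or Immtfl/fl-Myh6-MCM heart 1 or 3. Of the 5 that rose only *Plpp2* was followed singly over these fits, and it kept its call in all 14. The largest adjusted p of the 5 were those of *Lpin2* and *Lpin3*.

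Among 10 genes tested for phosphatidylserine and phosphatidylethanolamine, 1 rose, 1 fell and 8 did not pass (median log2FC -0.23). *Prelid3b*, a relative of *Prelid1* that carries phosphatidylserine, had 43.5, 45.8 and 45.9 CPM in control hearts and 71.6, 79.2 and 93.0 CPM in Immtfl/fl-Myh6-MCM hearts (log2FC 0.85, adjusted p = 0.000841). Among the members of its family in the lists, *Prelid2* and *Prelid3a* did not pass. *Pcyt2*, of the CDP-ethanolamine pathway, fell with a log2FC of -0.47 (adjusted p = 0.0319), a call lost in 6 of 14 alternatives, among them each fit without a heart other than Immtfl/fl-Myh6-MCM heart 3.

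Of 7 genes for phosphatidylcholine, 2 rose, 2 fell and 3 did not pass (median log2FC 0.28). Upward 1 passed without control heart 2 or Immtfl/fl-Myh6-MCM heart 2, and downward 1 without control heart 1 or 3 or Immtfl/fl-Myh6-MCM heart 1 or 2. *Chka*, choline kinase alpha, rose from 7.15, 16.4 and 10.8 CPM to 39.6, 33.0 and 60.3 CPM (log2FC 1.95, standard error 0.335, adjusted p = 0.00276). *Chpt1*, which makes phosphatidylcholine at the last step, fell from 518, 544 and 463 CPM to 261, 257 and 245 CPM (log2FC -0.999, standard error 0.116, adjusted p = 0.000204). *Chka* and *Chpt1* thus went opposite ways. Of the same list *Pcyt1a* also rose (log2FC 0.461, adjusted p = 0.021) and *Stard7* also fell (log2FC -0.543, adjusted p = 0.0169). *Chkb* of this list, a relative of *Chka*, did not pass at a log2FC of 0.283 (adjusted p = 0.603). Nor did *Cept1* of the list before, a relative of *Chpt1*, at -0.355 (adjusted p = 0.109).

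Of 10 genes for scaffolds and proteases of the cardiolipin-rich inner membrane, 1 rose, 3 fell and 6 did not pass (median log2FC -0.13). *Oma1*, the stress-activated protease that cleaves the fusion protein *Opa1*, had 31.9, 25.7 and 31.5 CPM in control hearts and 16.8, 15.99 and 12.3 CPM in Immtfl/fl-Myh6-MCM hearts (log2FC -0.98, adjusted p = 0.00176). *Dnajc19*, a partner of prohibitins in cardiolipin remodelling whose loss causes a cardiomyopathy in humans, fell from 25.6, 28.8 and 25.4 CPM to 14.4, 13.8 and 16.01 CPM (log2FC -0.85, adjusted p = 0.00144). *Opa1* also fell, with a log2FC of -0.61 (adjusted p = 0.0179), and *Afg3l2*, a subunit of the matrix-facing AAA protease, rose with a log2FC of 0.85 (adjusted p = 0.00235). The prohibitins *Phb* and *Phb2* did not pass. Without Immtfl/fl-Myh6-MCM heart 1, 2 genes of the list passed upward. *Opa1* lost its call without control heart 1 or 3 or Immtfl/fl-Myh6-MCM heart 1 or 2, where 2 genes passed downward. Downward 4 passed without Immtfl/fl-Myh6-MCM heart 3 or under upper-quartile factors.

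**Figure D5:**
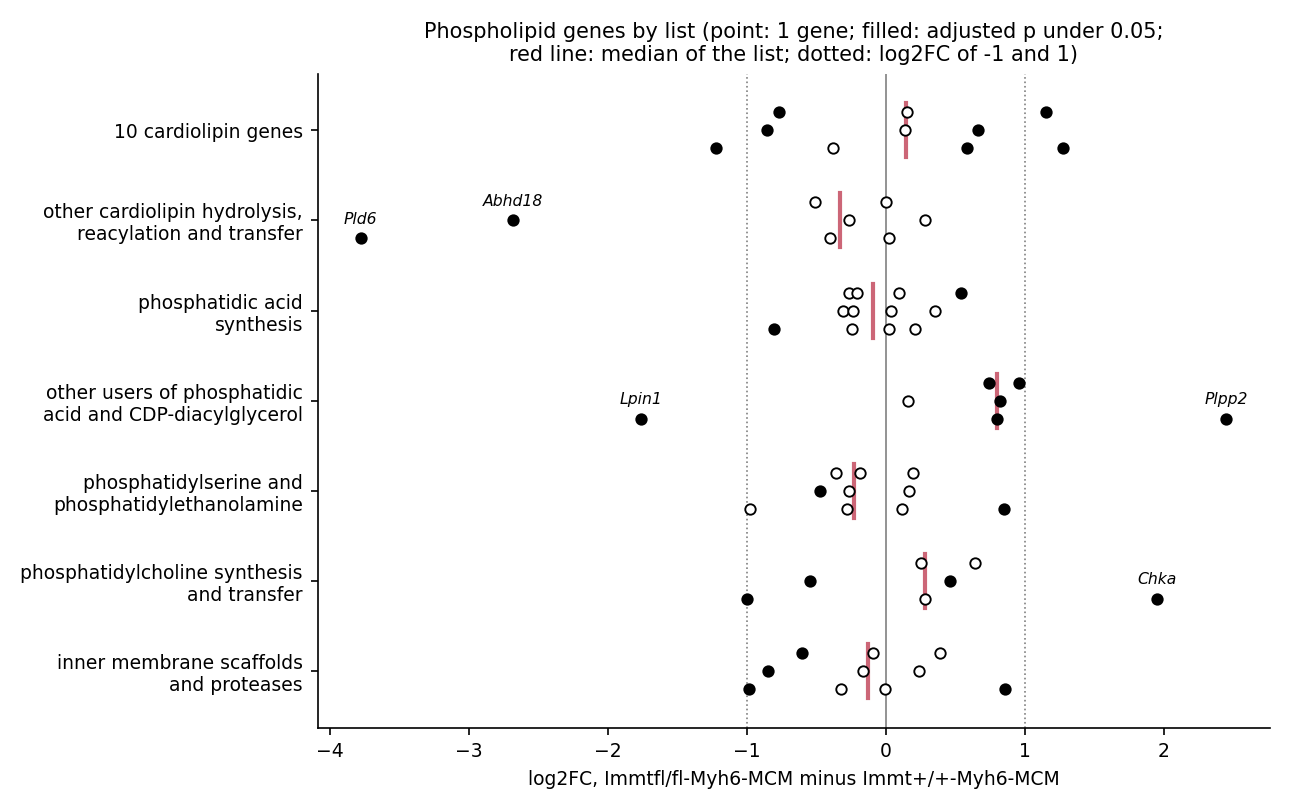
Log2FC (Immtfl/fl-Myh6-MCM minus Immt+/+-Myh6-MCM) of the 10 cardiolipin genes and of 54 further phospholipid genes by list, where a point is a gene, a filled point passed an adjusted p of 0.05 and the red line is the median of its list. *Plpp2* lies farthest to the right at 2.45 and *Pld6* and *Abhd18* farthest to the left at -3.78 and -2.68.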

How the data were processed

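The labels describe capture of the RNA of the 6 hearts by oligo-dT with molecular identifiers and tagmentation. The study states that Illumina prepared and sequenced the libraries of this time point, and it does not describe the capture. In the submitters' processing notes stand edgeR 4.0.16, Subread 2.1.1 with featureCounts, SAMtools 1.22.1 and STAR 2.7.11, and GRCm38 and mm10 as builds, all without their roles. Strand setting and treatment of the identifiers (reads or molecules counted) were not given in the sources used here. Every test started from the raw counts that the authors deposited. The authors also deposited FPKM, used to order genes per length and as an alternative for ratios. A deposited signal, the counts divided by a size factor per library with its group means, was not used. The log2 fold changes, p-values and adjusted p-values that the authors deposited are their own comparison and were not used.

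Of 27021 genes, 17146 passed filterByExpr (minimum count 10, minimum total 15). Counts were scaled by TMM (factors 0.8835 to 1.142) and compared with edgeR's robust quasi-likelihood F test (version 4.0.16, R 4.3.3), with Benjamini-Hochberg adjustment. The standard error is the size of the log2FC over the square root of F, and intervals are 95%. The script was tested on simulated data. Labels do not say beyond the numbering that hearts came from separate animals. The study takes each mouse as the unit of its experiments except where it states otherwise. The p-values measure the spread between these samples. Ratios were compared by exact permutation tests (SciPy 1.17.1). They use the same counts as the tests of single genes and are not independent of them. Named were the 10 genes, *Immt*, in each further list the genes past an adjusted p of 0.05 and an absolute log2FC of 1 or else the 2 with the smallest p, and the 3 genes most like *Crls1* and *Taz*. The members and lists were chosen with earlier results of these data known. Alternatives were RLE and upper-quartile factors, DESeq2 1.42.0, the replicate number as a block, no filter and a filter at a mean CPM of 1. Others were no mitochondrially encoded genes, a term for hearts with over 1000 *Xist* counts, each library left out, the fold threshold and, for ratios, FPKM. As FPKM only scales counts by gene length and library, it could not change a difference of log2 ratios.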

Additional observations from a re-analysis of the deposited data

How the results depend on the processing

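*Prelid1* (log2FC 1.17 to 1.37), *Cds2* (1.02 to 1.26), *Crls1* (0.56 to 0.76), *Taz* (-0.87 to -0.72), *Lclat1* (-0.96 to -0.80) and *Cds1* (-1.40 to -1.08) kept their direction and their side of the threshold in all 14 alternative fits. *Ptpmt1* lost its call in 7 of 14 (log2FC 0.37 to 0.72, adjusted p 0.0199 to 0.105). *Tamm41* ran from 0.246 to a log2FC of -0.009 (adjusted p = 0.982), the latter without the third Immtfl/fl-Myh6-MCM heart. With the fold threshold, 2 of the 10 genes passed upward and 1 downward, and of the other phospholipid genes 2 passed upward and 3 downward. Under upper-quartile factors 7 of the other phospholipid genes rose and 15 fell, against 10 and 10 in the main fit. Leaving out a library moved the count of those that fell between 6 and 13. It was 6 without control heart 1 or 3 or Immtfl/fl-Myh6-MCM heart 2, and 13 without Immtfl/fl-Myh6-MCM heart 3. Fits without a library also have fewer samples, and the cause of this range was not tested. The replicate number gave correlations of 0.014, -0.038 and 0.014 between same-numbered hearts, so it pairs nothing here. With it as a block 5658 genes were called, against 6590 without it, and *Ptpmt1* had a log2FC of 0.56 (adjusted p = 0.0649). *Pld6* rests on at most 18 counts in a library.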

Other observations

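The genes whose log2 CPM over the 6 hearts was most like that of *Crls1* were *Luzp1* (Pearson r 0.9985), *Utp3* (0.9975) and *Gpatch2l* (0.9971), and 588 genes had an r above 0.95. For *Taz* they were *Efcab2* (0.9996), *Echdc3* (0.9994) and *Parp14* (0.9984), among 1043 genes above 0.95. These values are a description over hearts of both groups, which differ in level, and they share libraries and scaling.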
